A study of Homo sapiens with 6 samples.

Results

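The hypoxia pathway was read in 143B osteosarcoma cells through 10 genes, matched by symbol among the 58825 genes of the deposited expression table. They are the 2 factor genes HIF1A and EPAS1, the 2 oxygen sensor genes EGLN1 and EGLN3, and the 6 target genes VEGFA, ADM, BNIP3, CA9, NDRG1 and ANKRD37. All 10 symbols were found once, and 9 of the 10 had enough counts to be tested. ADM, which encodes the vasodilator peptide adrenomedullin, was the only member whose level changed by edgeR's quasi-likelihood test, to 1.51-fold of the control level after SIGLEC15 siRNA (adjusted p = 0.0305), in a comparison where 4.65% of the 18910 genes tested were called. That call was lost in 8 of 14 alternatives, among them each one that left out a library, and DESeq2 called EGLN3, EPAS1 and VEGFA besides ADM. The factor genes, the sensors and the other tested targets did not pass the edgeR test, and CA9 had no count in any library.

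143B is an established human osteosarcoma cell line, so every value comes from 1 line. The control group received a negative control siRNA and the other group a SIGLEC15 siRNA, both at 80 nmol/L with Hiperfect reagent, and total RNA was taken after 36 h. Each group holds 3 libraries of poly(A) RNA. The labels name 37°C and 5% CO2 for the culture and give no oxygen level, so the data compare 2 siRNAs and not 2 oxygen levels. They do not say whether the libraries came from separate cultures, and p-values then measure only the spread between these libraries.

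HIF is a pair of proteins, an oxygen-regulated alpha subunit encoded by HIF1A or EPAS1 and the partner subunit ARNT. When oxygen is present, the EGLN prolyl hydroxylases mark the alpha subunit, the VHL ubiquitin ligase binds the marked protein, and the proteasome degrades it. When oxygen is low the alpha subunit persists, binds DNA with ARNT at a short core sequence and raises genes for new vessels, glycolysis, acid handling and mitophagy. That control acts mainly on HIF protein, which was not measured here. EGLN3 is itself a HIF target, so its transcript reads the pathway as well as encoding a sensor.

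The promoters of the members are shown first, read for the short core sequence that HIF binds. HIF1A and EPAS1 are members as factor genes and not as HIF targets, and sites outside the stretch searched are not seen. The sequences are from RefSeq on GRCh38.p14, and 8 of the 10 members matched the promoter table by symbol; VEGFA and NDRG1 did not. The 250 bases before each start site were searched for ACGTG and GCGTG on both strands, so that CACGT and CACGC count as matches too. Where both strands match in place the letters read CACGTG, which is also the E-box bound by other factors. At least 1 match was present for 7 of the 8 matched members and for 43.2% of the 35116 promoters in the table. HIF1A counts through the first of its listed starts, the other having no match, while the 43.2% counts each promoter by itself. Shown are ADM, the only member called by edgeR with all 6 libraries, EGLN3, which had the largest estimate and no match, BNIP3, which had 6 matches, and CA9, which had a match and no counts. Capitals mark the matches, and each run is written 5′ to 3′ on the strand of its gene. ADM is at chr11:10304823-10305072 (plus strand), EGLN3 at chr14:33951075-33951324 (minus strand), BNIP3 at chr10:131981924-131982173 (minus strand) and CA9 at chr9:35673678-35673927 (plus strand).
ADM: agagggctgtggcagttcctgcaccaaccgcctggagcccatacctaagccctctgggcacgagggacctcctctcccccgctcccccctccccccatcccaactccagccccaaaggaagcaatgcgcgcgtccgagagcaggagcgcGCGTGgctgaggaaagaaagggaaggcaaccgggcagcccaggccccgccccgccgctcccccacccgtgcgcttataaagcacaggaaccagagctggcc
EGLN3: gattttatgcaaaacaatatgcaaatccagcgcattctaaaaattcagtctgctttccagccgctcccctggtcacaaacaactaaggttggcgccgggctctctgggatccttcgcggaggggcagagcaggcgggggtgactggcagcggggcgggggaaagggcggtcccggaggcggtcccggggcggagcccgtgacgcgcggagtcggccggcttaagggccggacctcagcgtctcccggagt
BNIP3: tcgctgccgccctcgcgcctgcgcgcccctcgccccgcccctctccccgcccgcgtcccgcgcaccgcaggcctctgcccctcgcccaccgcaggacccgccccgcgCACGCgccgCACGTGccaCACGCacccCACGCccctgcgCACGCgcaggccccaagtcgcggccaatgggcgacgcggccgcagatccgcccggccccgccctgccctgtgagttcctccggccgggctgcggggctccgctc
CA9: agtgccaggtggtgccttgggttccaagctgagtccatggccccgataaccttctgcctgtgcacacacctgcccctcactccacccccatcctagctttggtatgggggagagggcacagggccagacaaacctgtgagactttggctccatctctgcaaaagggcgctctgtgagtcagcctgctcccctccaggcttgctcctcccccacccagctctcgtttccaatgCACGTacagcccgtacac

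The single match of ADM is GCGTG and begins at position -101, counted from the start site. The 6 matches of BNIP3 lie between positions -143 and -104, and 1 pair of them forms CACGTG. CA9 has CACGT at position -18, within the stretch where its known HIF site lies. Of the members not printed, ANKRD37 had 3 matches, 2 of which form CACGTG at position -162, EGLN1 had ACGTG at -13, and EPAS1 and the first of 2 listed HIF1A starts had 1 GCGTG each, at -117 and -204. At least 2 matches were present for BNIP3 and ANKRD37 and for 19.4% of all promoters. A match is a description of the letters. The genes with most matches, BNIP3 and ANKRD37, did not pass the test between the groups.

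The libraries held 57966691 to 67655254 counts, with a mean of 60764950 ± 1689559 in the controls and 64092263 ± 5328431 after SIGLEC15 siRNA (SD, n = 3 each). On the first principal component, with 33.4% of the variance, the groups separated. On the second, with 20%, control replicate 3 and SIGLEC15 siRNA replicate 1 stood apart from the other 4 libraries, and the main results are given below with and without these 2. SIGLEC15 itself had 12, 10 and 22 counts in the controls and 12, 8 and 6 after its siRNA, at a log2 fold change of -0.82 ± 0.598 (SE) that did not pass the edgeR test (adjusted p = 0.529) or an exact permutation test (two-sided p = 0.2). The RNA data thus do not show a knockdown beyond the spread between libraries, and the groups are named below by the siRNA they received. Of the mesenchymal and bone markers VIM and SPARC were abundant and ALPL, BGLAP and COL1A2 were close to 0, and summed levels of 7 such markers, mostly VIM, were 3270 to 3440 CPM in the controls and 3190 to 3430 CPM after SIGLEC15 siRNA. The osteoblast factor gene RUNX2 was at 3.42, 3.59 and 2.65 CPM in the controls and at 20.1, 3.6 and 15 CPM after SIGLEC15 siRNA, where replicate 2 lay at the control level (edgeR adjusted p = 0.113, DESeq2 adjusted p = 0.0219). CDH1, CDH5, PTPRC and CD3E, which define epithelial, endothelial and blood cells, had no count in any library. Summed levels of the 4 epithelial markers were 11.8 to 13.3 CPM in the controls and 8.76 to 11.3 CPM after SIGLEC15 siRNA, mostly EPCAM, those of the 4 blood markers 41.9 to 56.6 and 28 to 48 CPM, mostly CD68, and those of the 4 endothelial markers, PECAM1 among them, at most 0.543 CPM in any library. None of the 3 that could be tested, EPCAM, CD68 and PECAM1, was called by edgeR. The bone matrix genes SPARC (346 ± 6.34 to 604 ± 7.68 CPM) and COL1A1 (12.9 ± 0.754 to 20.9 ± 0.645 CPM) rose with the group (edgeR adjusted p = 0.00137 and 0.0134; COL1A1 lost its call without control replicate 1, 2 or 3 or SIGLEC15 siRNA replicate 2, at up to 0.0664), and their part in the results below was not tested. In bulk RNA, fewer cells expressing a gene and less RNA per cell cannot be told apart.

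Levels were compared between genes in FPKM, which divides by transcript length. HIF1A was the highest member in both groups, at 39.5 ± 3.53 FPKM in the controls and 43.3 ± 3.99 FPKM after SIGLEC15 siRNA (SD, n = 3), and its mean over all libraries lay above that of 95.2% of tested genes. In the controls BNIP3 (9.89 ± 0.829), VEGFA (9.41 ± 0.466) and EPAS1 (9.38 ± 0.791 FPKM) came next, and their ranges over libraries overlapped from each to the next. Below them followed ADM at 7.27 ± 0.31, EGLN1 at 5.92 ± 0.051, NDRG1 at 2.95 ± 0.217, ANKRD37 at 1.7 ± 0.0766 and EGLN3 at 0.514 ± 0.0729 FPKM, with no overlap between neighbours. CA9 was listed at 0. After SIGLEC15 siRNA the order changed in its middle. EPAS1 (11.3 ± 0.626), ADM (10.9 ± 0.929) and BNIP3 (10.8 ± 0.0466 FPKM) shared the second to the fourth place with overlapping neighbours, and VEGFA came next at 7.91 ± 0.695 FPKM. ADM thus moved from below VEGFA to above it.

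**Figure D1:**
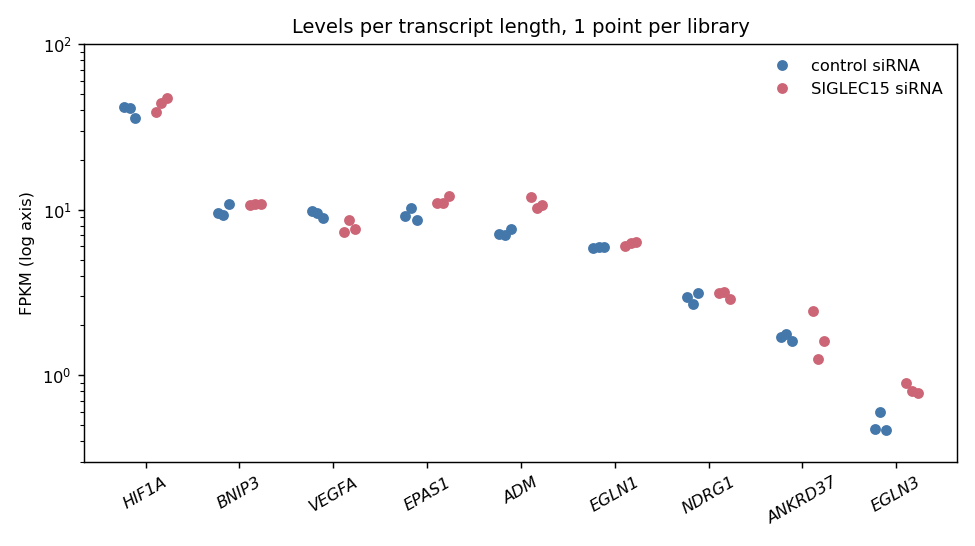
FPKM of the 9 members with counts (log axis), 1 point per library, ordered by the control mean; CA9, listed at 0 in all 6 libraries, cannot be drawn on a log axis. HIF1A stands above all others at 35.5 to 46.9 FPKM, and EGLN3 is the lowest at 0.47 to 0.896 FPKM.

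HIF1A encodes the widely expressed alpha subunit and lies on chromosome 14 from 61695513 to 61748258 in the coordinates of the table. Between the groups, each gene was compared in CPM scaled by TMM. HIF1A was at 255, 252 and 220 CPM in the control libraries and at 243, 264 and 289 CPM after SIGLEC15 siRNA. The groups overlapped, since SIGLEC15 siRNA replicate 1 lay below 2 of the controls. The log2 fold change was 0.13 ± 0.091 (SE), with a 95% interval from -0.09 to 0.35 and an edgeR adjusted p of 0.508. As a fold change that interval runs from 0.942 to 1.27. Antisense genes overlap HIF1A, but HIF1A-AS1 had at most 37 and HIF1A-AS2 at most 32 counts in a library, against 13473 counts or more for HIF1A.

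EPAS1 encodes HIF-2 alpha, the alpha subunit known for endothelial and kidney expression, and lies on chromosome 2 from 46293667 to 46386696. It was at 79, 88.8 and 76.5 CPM in the controls and at 96.1, 93.8 and 105 CPM after SIGLEC15 siRNA. All 3 libraries of the SIGLEC15 siRNA group lay above all 3 controls. The log2 fold change of 0.27 ± 0.0839 (95% interval 0.07 to 0.47) did not pass the edgeR test (adjusted p = 0.139), while DESeq2 gave an adjusted p of 0.0126. In FPKM the ratio of HIF1A to EPAS1 was 4.22 ± 0.296 in the controls and 3.82 ± 0.217 after SIGLEC15 siRNA (SD, n = 3, exact two-sided permutation p = 0.1, the smallest that 3 against 3 libraries can give). Both groups thus held about 4 times as much HIF1A as EPAS1 transcript.

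EGLN1 encodes PHD2, the main oxygen sensor of most cells, and lies on chromosome 1 from 231363751 to 231425044. It varied little, at 50.4, 51.1 and 52.3 CPM in the controls and 52.9, 53.4 and 55.7 CPM after SIGLEC15 siRNA. The 2 groups did not overlap, but they lay next to each other: the log2 fold change was 0.07 ± 0.0654 (95% interval -0.08 to 0.23, edgeR adjusted p = 0.608). Its coefficient of variation was 1.94% in the controls and 2.77% in the SIGLEC15 siRNA group.

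EGLN3 encodes PHD3, a hydroxylase that is strongly induced by HIF in many cells, and lies on chromosome 14 from 33924231 to 34222953. It was at 4.12, 5.23 and 4.2 CPM in the controls and at 7.96, 6.91 and 6.92 CPM after SIGLEC15 siRNA. The groups were apart, with the highest control at 5.23 and the lowest library of the other group at 6.91 CPM. Its log2 fold change of 0.69 ± 0.153 (95% interval 0.32 to 1.05, 1.61-fold) was the largest of the members, yet it missed the edgeR threshold (adjusted p = 0.0587) and passed under DESeq2 (adjusted p = 0.000264). The gene was low, with 255 to 526 counts in a library. In FPKM the ratio of EGLN1 to EGLN3 was 12.4, 9.9 and 12.7 in the controls and 6.73, 7.86 and 8.18 after SIGLEC15 siRNA (exact two-sided permutation p = 0.1, the smallest possible). The control ratios were all above the others. EGLN3 was already apart by itself and EGLN1 changed little, so the p of this ratio adds no further test.

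**Figure D2:**
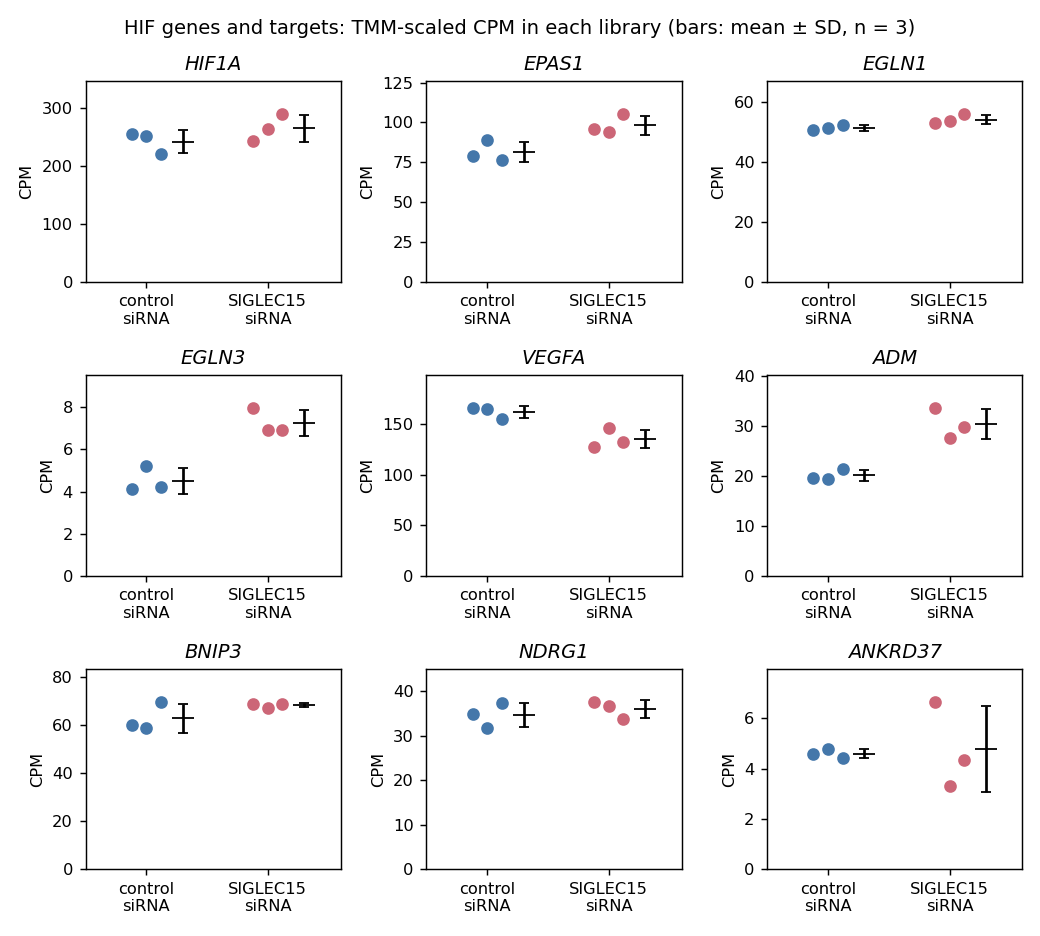
TMM-scaled CPM of the 9 tested members, each panel from 0, with 1 point per library and the mean ± SD (n = 3) to the right of each group. The groups are fully apart for EPAS1, EGLN1, EGLN3 and ADM, higher after SIGLEC15 siRNA, and for VEGFA, lower after it; ANKRD37 spreads from 3.33 to 6.64 CPM after SIGLEC15 siRNA.

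ADM encodes adrenomedullin, a secreted peptide that widens vessels and supports endothelial barriers, and is a classical HIF target. It lies on chromosome 11 from 10305073 to 10307397 and no other gene of the table overlaps it. ADM was at 19.6, 19.5 and 21.4 CPM in the controls and at 33.6, 27.6 and 29.9 CPM after SIGLEC15 siRNA. The lowest library of the second group lay above the highest control by more than the whole range of the controls. The means were 20.2 ± 1.05 and 30.4 ± 3.04 CPM (SD, n = 3), a log2 fold change of 0.59 ± 0.106 (95% interval 0.34 to 0.84, 1.26-fold to 1.79-fold, edgeR adjusted p = 0.0305). The direction was higher in each of the 14 alternatives, with log2 fold changes from 0.51 to 0.65, but the call was lost when any 1 library was left out. Without control replicates 1, 2 and 3 in turn the edgeR adjusted p was 0.108, 0.12 and 0.0764, without SIGLEC15 siRNA replicates 1, 2 and 3 it was 0.0805, 0.0666 and 0.0784, and without both libraries that stood apart it was 0.129.

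VEGFA encodes the main growth factor for vessels and lies on chromosome 6 from 43770184 to 43786487. It was at 166, 165 and 155 CPM in the controls and at 128, 146 and 133 CPM after SIGLEC15 siRNA. VEGFA was the only member that lay lower in all 3 libraries of the SIGLEC15 siRNA group, the opposite side from ADM. The log2 fold change was -0.25 ± 0.0724 (95% interval -0.43 to -0.08), which did not pass the edgeR test (adjusted p = 0.114) and passed with DESeq2 (adjusted p = 0.00834). In FPKM the ratio of VEGFA to ADM was 1.36, 1.36 and 1.17 in the controls and 0.615, 0.855 and 0.716 after SIGLEC15 siRNA (exact two-sided permutation p = 0.1). Every control thus held more VEGFA than ADM transcript per length, and every library of the other group held less. With VEGFA lower and ADM higher in each of those libraries, the ratio had to separate. Its p adds no further test.

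BNIP3 encodes a mitochondrial protein that recruits the autophagy machinery, and lies on chromosome 10 from 131966455 to 131982013. It was at 59.8, 58.9 and 69.5 CPM in the controls and at 68.9, 67.2 and 68.8 CPM after SIGLEC15 siRNA. Control replicate 3, one of the libraries that stood apart, was the highest of all 6, so the groups overlapped (log2 fold change 0.12 ± 0.0836, edgeR adjusted p = 0.5). Without that library the log2 fold change was 0.20 and the adjusted p 0.248, which was also not a call. BNIP3 varied by 9.41% in the controls and by 1.41% in the other group (coefficient of variation).

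NDRG1 encodes a stress-responsive protein linked to growth arrest and lies on chromosome 8 from 133237171 to 133297958. It was at 34.8, 31.8 and 37.3 CPM in the controls and at 37.5, 36.6 and 33.8 CPM after SIGLEC15 siRNA. The groups overlapped over most of their range, with a log2 fold change of 0.06 ± 0.0938 (95% interval -0.17 to 0.28, edgeR adjusted p = 0.816).

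ANKRD37 encodes a small ankyrin repeat protein whose gene is a known direct HIF target, and lies on chromosome 4 from 185396021 to 185400241. It was at 4.6, 4.76 and 4.43 CPM in the controls and at 6.64, 3.33 and 4.34 CPM after SIGLEC15 siRNA. The controls lay close together, while the other group held both the highest and the lowest library, with coefficients of variation of 3.57% and 35.6%. The log2 fold change was 0.05 ± 0.257 (95% interval -0.56 to 0.67, edgeR adjusted p = 0.943), and without SIGLEC15 siRNA replicate 1 it was -0.27. The count of ANKRD37 is uncertain, because its last 705 bases overlap UFSP2 on the opposite strand, which had up to 1991 counts in a library and 572% of the summed ANKRD37 counts. UFSP2 was at 29.3, 24.3 and 29.7 CPM in the SIGLEC15 siRNA libraries, lowest in the library where ANKRD37 was lowest, and its part in the ANKRD37 values was not tested.

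CA9 encodes carbonic anhydrase IX, the cell-surface enzyme widely used as a marker of tumor hypoxia, and lies on chromosome 9 from 35673918 to 35681159. It had 0 counts in all 6 libraries. ARHGEF39, on the opposite strand, overlaps 1949 bases of CA9 and had up to 1924 counts in a library. The use of strand in the counting is not known, and the part of this overlap in the CA9 count was not tested. How many counts 1 read pair gives is not known here, so no upper limit is given for the level of CA9. CA12, a related tumor enzyme, was by contrast well detected (below). No fold or test can be given for CA9.

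Of the 9 tested members, 1 was called higher and 0 lower by edgeR, or 11.1%, against 4.65% of the 18910 genes tested (2.22% higher and 2.43% lower). A single call among 9 genes is not a result about the list. DESeq2 called 4 members, ADM, EGLN3 and EPAS1 higher and VEGFA lower, while it called 17.1% of all genes it tested. The log2 fold change was above 0 in 8 of the 9, with a median of 0.122 against -0.00642 over all tested genes. The libraries of the groups did not overlap for 5 of the 9, or 55.6%, and for 26.6% of all genes tested. The ninth, VEGFA, lay lower.

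**Figure D3:**
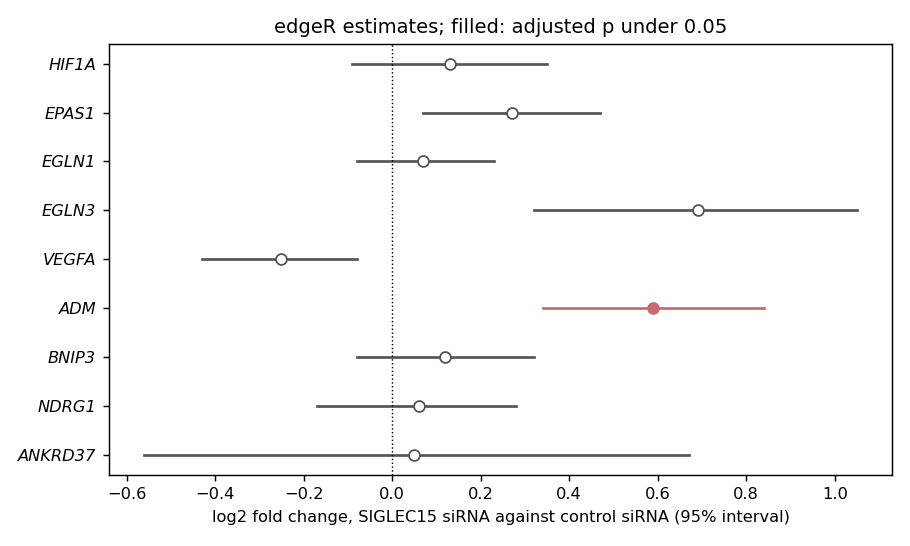
Log2 fold changes of the 9 tested members from edgeR (SIGLEC15 siRNA against control siRNA) with 95% intervals; the filled point is the 1 with an adjusted p under 0.05. ADM and EGLN3 lie at 0.59 and 0.69, VEGFA at -0.25, and ANKRD37 has the widest interval, from -0.56 to 0.67.

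The other genes of the pathway were read from 6 lists chosen by function, but with earlier results of these data known. The shares called in these lists are therefore descriptions. The lists held 98 genes, of which 92 were tested. Of these, 9 were called higher and 2 lower, or 12%, against 4.65% of all genes tested. When 1 library was left out, 3 to 4 of the 92 were called. Calls over all genes fell as well, from 879 to between 260 and 431, with 19549 to 19608 genes tested. The median log2 fold change was 0.0541, against -0.00642 over all genes tested. The groups were apart for 38% of the 92 and for 26.6% of all genes tested. Among genes with a mean FPKM of at least 1 the share called over all genes was 6.54%, so well-expressed genes were called more often in general.

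The partners and regulators of HIF gave 0 calls among 13 tested genes (edgeR; 4 had an unadjusted p under 0.05), against 4.65% called and 19.1% with such a p over all genes tested. ARNT, the shared partner subunit, was at 39.2, 38.6 and 47.7 CPM in the controls and at 54.5, 58 and 55.2 CPM after SIGLEC15 siRNA, apart but not called (log2 fold change 0.42 ± 0.101, edgeR adjusted p = 0.0733). VHL, the recognition subunit of the ligase, was at 16.5, 14.8 and 14.3 CPM against 18.3, 24.3 and 34.6 CPM, widely spread in the second group and not called (edgeR adjusted p = 0.128). HIF1AN, which encodes the asparaginyl hydroxylase FIH, was at 104 to 106 CPM in the controls and 118 to 119 CPM in the other group (edgeR adjusted p = 0.136). EGLN2, the third sensor, was also apart, at 22.7 to 25.8 against 27.7 to 34.7 CPM (edgeR adjusted p = 0.141). With DESeq2 the adjusted p was 0.000451 for ARNT, 0.00331 for VHL, 0.00275 for HIF1AN and 0.0108 for EGLN2. The other tested genes of this list did not pass with DESeq2, which called 17.1% of all genes it tested. HIF3A had no count in any library. ARNT, VHL, HIF1AN and EGLN2 were singled out after their values were seen.

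Among 37 tested HIF targets outside the members, 6 were called higher and 2 lower by edgeR, or 21.6%, against 2.22% higher and 2.43% lower over all genes tested. DDIT4, which encodes the mTORC1 inhibitor REDD1, was at 246, 240 and 274 CPM in the controls and at 166, 153 and 149 CPM after SIGLEC15 siRNA, and fell by 0.70 ± 0.0776 on the log2 scale (edgeR adjusted p = 0.00719). CA12, which encodes the carbonic anhydrase XII of the cell surface, was at 22.6, 21.9 and 21 CPM against 38.9, 34.9 and 38.5 CPM and rose by 0.78 ± 0.087 (edgeR adjusted p = 0.00738). PDGFB, a growth factor chain for pericytes, rose from 3.97 ± 0.358 to 7.68 ± 0.581 CPM, and the collagen cross-linking enzyme gene LOXL2 from 150 ± 0.74 to 188 ± 5.28 CPM (SD, n = 3, edgeR adjusted p = 0.0159 and 0.0242). Leaving out any 1 library ended the call of LOXL2 (edgeR adjusted p from 0.0661 to 0.109), and that of PDGFB was lost without control replicate 2 or 3 or SIGLEC15 siRNA replicate 2 or 3 (up to 0.0706), while DDIT4 and CA12 passed without each library. With both libraries that stood apart left out, DDIT4 (0.053) and CA12 (0.0938) did not pass either. The remaining calls were ANGPTL4 (1.15), STC1 (0.69) and ERO1A (0.32, log2 fold change) higher and STC2 (-0.38) lower, named after their values were seen, and each of these 4 calls was lost when any 1 library was left out, at an edgeR adjusted p of 0.0512 or more. The calls thus lay in both directions. The groups were apart for 11 of the 37 on the higher side and 2 on the lower (35.1%, against 26.6% of all genes tested). BHLHE41 (0.50), P4HA2 (0.52) and PLOD2 (0.25) were among those higher and did not pass (edgeR adjusted p = 0.0614, 0.0752 and 0.071). BNIP3L, KDM3A, P4HA1 and LOX had log2 fold changes between -0.04 and 0.12 that did not pass. These uncalled genes were also singled out afterwards.

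Glycolysis is a main program of HIF1A, and 3 of its 19 tested target genes were called by edgeR, all higher, or 15.8% against 4.65% of all genes tested and 6.54% of those with a mean FPKM of at least 1. SLC2A3, which encodes the glucose transporter GLUT3, was at 36.5, 33.3 and 34.1 CPM in the controls and at 87, 82.7 and 77.2 CPM after SIGLEC15 siRNA. It rose 2.38-fold (log2 1.25 ± 0.0788, edgeR adjusted p = 0.00137) and was called in each of the 14 alternatives. The other calls were small, PGAM1 at 0.33 and PFKP at 0.31 on the log2 scale (edgeR adjusted p = 0.0262 and 0.034), and both were lost without any 1 library, at adjusted p-values up to 0.102 and 0.137. Not called were PGK1, with a log2 fold change of 0.07, LDHA with -0.14, PDK1 with -0.10 and ENO1 with 0.04. SLC16A3 (0.53, edgeR adjusted p = 0.0676) and HK1 (0.22, 0.0845) were also not called, though their groups were apart. Of the 19 genes, 10 had a log2 fold change above 0. The groups were apart for 6 of them, all higher (31.6%, against 26.6% of all genes tested). SLC2A1, the GLUT1 gene, was at 36.1, 84.7 and 77.9 CPM in the controls and at 26.9, 27.8 and 68.9 CPM in the other group, with overlap and no call (edgeR adjusted p = 0.49). The uncalled genes named in this paragraph were singled out after their values were seen.

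**Figure D4:**
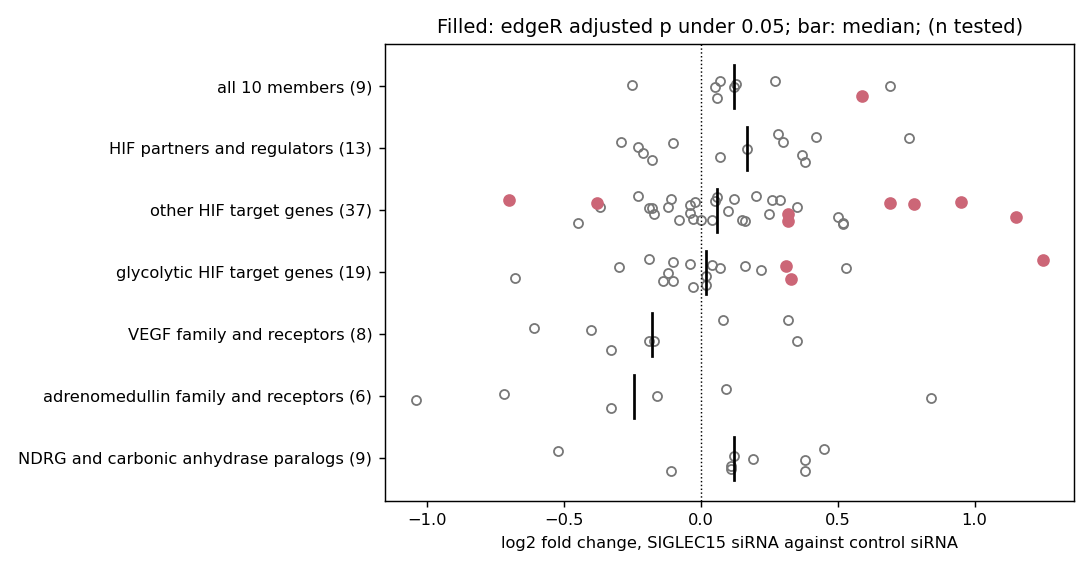
Log2 fold changes (SIGLEC15 siRNA against control siRNA) of the tested genes in each list, 1 point per gene with random vertical offset; bars are medians and filled points had an edgeR adjusted p under 0.05. The filled points of the other HIF targets lie on both sides of 0, from -0.70 (DDIT4) to 1.15 (ANGPTL4), and SLC2A3 at 1.25 is the farthest glycolytic gene.

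The families of the members were read for how far a change was shared. Among 8 tested VEGF ligands and receptors 0 were called by edgeR, against 4.65% of all genes tested. Of the 8, 5 had an unadjusted p under 0.05 (19.1% of all genes tested did). The groups were apart for 6 (26.6% of all genes tested), of which 2 lay higher and 4 lower. VEGFC, the ligand of lymphatic vessels, was at 36.9 ± 1.06 CPM in the controls and 47 ± 3.35 CPM after SIGLEC15 siRNA, while the receptor gene FLT1 was at 16.8 ± 1.63 and 10.9 ± 1.64 CPM (SD, n = 3, edgeR adjusted p = 0.0676 and 0.0678). With DESeq2 both passed (adjusted p = 0.000229 and 0.000635), in a comparison where it called 17.1% of all genes it tested. Among 6 tested genes of the adrenomedullin family and its receptors 0 were called by edgeR, against the same 4.65%. Of the 6, 4 had an unadjusted p under 0.05, against the same 19.1% of all genes. CALCB (log2 fold change -1.04, edgeR adjusted p = 0.0678), ADM2 (-0.33, 0.136) and RAMP2 lay lower and RAMP1 (0.84, 0.212) higher. With DESeq2 these genes passed, at an adjusted p of 0.00114 for CALCB, 0.0112 for ADM2, 0.0045 for RAMP2 and 0.0494 for RAMP1. CALCRL, the receptor that binds adrenomedullin together with a RAMP protein, was at 1.46 ± 0.26 CPM in the controls and 1.31 ± 0.335 CPM after SIGLEC15 siRNA. Its partner RAMP2 was at 3.1, 3.71 and 4.17 CPM against 1.97, 2.21 and 2.49 CPM (edgeR adjusted p = 0.0873), and RAMP3 had no count. Among 9 tested paralogs of NDRG1 and of the carbonic anhydrases 0 were called by edgeR and 1 had an unadjusted p under 0.05. Over all genes tested these shares were 4.65% and 19.1%. That 1 gene, CA8, passed with DESeq2 (adjusted p = 0.0372). At such a share called over all genes, 0 calls in lists of 6 to 9 genes is not a result about the lists. VEGFC, FLT1, CALCB, ADM2, CALCRL, RAMP1, RAMP2 and CA8 were singled out after their values were seen.

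By profile, the 3 genes most like ADM over the 6 libraries were CCL2, CDH7 and OSTM1, by the root mean square difference of centred log2(CPM + 1), at 0.0449, 0.0499 and 0.0502. CCL2, a chemokine for monocytes, was at 3.28, 2.98 and 3.37 CPM in the controls and at 5.78, 4.5 and 5.4 CPM in the other group. OSTM1, which encodes a lysosomal chloride transporter subunit, was at 32.9, 34 and 33.8 CPM against 52.7, 43.8 and 48.8 CPM. Both share with ADM the order of the SIGLEC15 siRNA libraries, highest in replicate 1 and lowest in replicate 2. Choosing genes by their profile over the same libraries favours such a shared order. CCL2 was not called by edgeR (adjusted p = 0.0581). OSTM1 was called (adjusted p = 0.0261), and its call was lost in 7 of 14 alternatives. CDH7 was near 0, with at most 0.666 CPM in a library, and its likeness on this scale says little.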

How the data were processed

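Poly(A) RNA of 6 libraries was sequenced as read pairs on a NovaSeq instrument, per the labels. For each gene the authors deposited whole-number counts and, in separate columns, FPKM, per the file headers. HISAT, StringTie and edgeR are named in the submitters' processing notes. For the genome build and the use of strand, a setting was not given in the sources used here. Coordinates are the table's own: 58552 of its 58825 IDs are in GENCODE 29 (GRCh38), 47593 with the same start, end and strand. Counts of 4 made up 21% to 22.2% of the counts from 1 to 12 in a library, so a count may not be 1 read pair and no counting interval is given.

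The count test was that of edgeR 4.0.16 (R 4.3.3) over all 6 libraries with no covariate: filterByExpr (minimum count 10, minimum total 15), TMM scaling, the quasi-likelihood F test and Benjamini-Hochberg adjustment over 18910 genes, with calls at an adjusted p under 0.05. CPM was taken on TMM-scaled library sizes. SE is that of the log2 fold change. Exact permutation tests of single genes used log2(CPM + 1). Alternatives were limma-trend (limma 3.58.1) on log2(FPKM + 1) and log2(FPKM + 0.1), 2 filters, median-of-ratios size factors, DESeq2 1.42.0, the replicate number as a block and each library left out; leaving out the 2 libraries that stood apart was added after seeing the data. The test was tried on simulated data. The members and lists were chosen with earlier results of these data known. Genes named by rule are the members, up to 4 called genes with the smallest p of each pathway list, any tested gene of a list with 5 or fewer, the 3 genes most like ADM, and SIGLEC15. Other genes named, such as ARNT, VEGFC, RUNX2, STC1 and EDN1, lie outside this rule. One bone marker of the list, SP7, was not analysed here.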

Additional observations from a re-analysis of the deposited data

How the results depend on the processing

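The members called numbered 1 (ADM) in both limma-trend settings, both filters and the median-of-ratios scaling, 4 with DESeq2 (3 higher, 1 lower), and 0 with the replicate block, when any 1 library was left out, and with 2 libraries per group. Of the other HIF pathway genes, 11 were called (9 higher, 2 lower), 29 with DESeq2 (23 higher, 6 lower), 1 with the replicate block (1 higher, 0 lower), 3 to 4 with a library left out (2 to 3 higher, 1 lower), and 1 with 2 libraries per group (1 higher, 0 lower). Over all genes, 879 were called (419 higher, 460 lower), 2916 with DESeq2 (1469 higher, 1447 lower), 50 with the replicate block (15 higher, 35 lower), 260 to 431 with a library left out (108 to 189 higher, 151 to 242 lower), and 70 with 2 libraries per group (27 higher, 43 lower). Deviations of same-numbered libraries from their group means correlated at r = -0.0712, 0.00662 and -0.117. With so few libraries these values cannot decide whether such libraries share more than a number, and this was not tested further. ANKRD37, at 0.05, ranged from -0.27 (without SIGLEC15 siRNA replicate 1) to 0.26 with a library left out, and turned to 0 with the replicate block and to -0.29 with 2 libraries per group; NDRG1, at 0.06, ranged from -0.01 (without control replicate 2) to 0.11. The marker PECAM1, at -0.10 and under 1 CPM, ranged from -0.35 to 0.35 with a library left out (0.35 without control replicate 3) and turned to 0.07 without SIGLEC15 siRNA replicate 1 and to 0.53 with 2 libraries per group. The cause of these changes was not tested, beyond the smaller number of libraries. Calls of LOXL2, PGAM1, PFKP, ANGPTL4, ERO1A, STC1 and STC2 were lost without each library in turn, and those of PDGFB without 4 of the 6, while SLC2A3, CA12 and DDIT4 passed in all 6. CA12 and DDIT4 did not pass with the replicate block (edgeR adjusted p = 0.0849 and 0.08) or with 2 libraries per group (0.0938 and 0.053), and SLC2A3 passed in both. SIGLEC15, at 6 to 22 counts in a library, was read near the detection limit.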

Other observations

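Genes that carry the response to hypoxia term in the deposited table were counted as a further list, chosen after seeing the data. Without the members, 131 of them were tested, 10 were called higher and 7 lower by edgeR (13%, against 4.65% of all genes tested), and their median log2 fold change was 0.00654. The largest of the lower calls was EDN1, which encodes the vessel-constricting peptide endothelin-1, at 16.7, 18.9 and 14.1 CPM in the controls and 3.95, 3.33 and 5.1 CPM after SIGLEC15 siRNA (log2 fold change -2.01 ± 0.198, edgeR adjusted p = 0.00519). It lay on the opposite side from ADM, which encodes a vessel-widening peptide. ANGPT2, a vessel-destabilising ligand, was at 55.9 ± 2.27 CPM in the controls and 31.5 ± 2.52 CPM in the other group (SD, n = 3, edgeR adjusted p = 0.00635). THBS1, an inhibitor of vessel growth, was at 153 ± 9.74 and 225 ± 22 CPM (edgeR adjusted p = 0.022). Among the higher calls were the TGF-beta receptor genes TGFBR2 (0.58) and TGFBR3 (1.07) and the DNA methyltransferase gene DNMT3B (1.19, log2 fold change). The call with the smallest p was EGR1, at a log2 fold change of -1.29 (edgeR adjusted p = 0.0018). The genes named in this paragraph outside the members were singled out after their values were seen. Their calls were not followed in the alternatives. Of the 10 members 8 carry the term, and NDRG1 and ANKRD37 do not.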
